A study of Mus musculus with 2 samples.

Results

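The genes described are those that encode the chains of collagens and laminins. They were taken by symbol, as genes named Col or Lam with a chain number and with at least 1 transcript annotated as protein-coding. This rule found 55 genes, 44 for collagen chains and 11 for laminin chains, of 55536 annotated genes, of which 22028 are protein-coding. The RNA was polyadenylated RNA of hippocampus, a forebrain region needed to form memories, from adult mice at 6 months of age. The mice are labelled C57BL/6 and, as strain, B6NCrl, with no genetic change or treatment named. The series holds 1 group of 2 libraries, labelled biological replicates 1 and 2, each made from 20 ng of RNA. The labels tie both tissue samples to a single donor identifier and do not say whether they came from separate animals, so p-values compare these libraries and the spread between them may be technical.

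Collagens and laminins are the structural proteins of the extracellular matrix. A collagen molecule is a trimer of chains wound into a triple helix, for which each chain repeats the triplet Gly-X-Y, glycine followed by any pair of residues. Type IV collagen forms the network of basement membranes, type I and the other fibrillar collagens form fibers, and further types sit on fibers, span the cell membrane or build short-chain lattices. A laminin is a cross-shaped trimer of an alpha, a beta and a gamma chain that starts the assembly of a basement membrane and binds receptors on cells. In the brain, basement membranes lie around blood vessels, under the pial surface and in the choroid plexus, and the space between neurons holds little fibrillar collagen.

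The coding sequences separate the families. Short stretches of 4 collagens that differed between the libraries and of the highest laminin are given as chosen examples. Each stretch is 60 bases of the reading frame of the GENCODE M21 transcripts on mm10. For a collagen it is the start of the longest unbroken run of Gly-X-Y triplets. For the laminin it is the window with the most cysteine codons. In the collagens the glycine codons are in capitals, and in the laminin the cysteine codons are.
Col8a1, chr16:57628024-57628083, minus strand, 1 exon, codons 355 to 374: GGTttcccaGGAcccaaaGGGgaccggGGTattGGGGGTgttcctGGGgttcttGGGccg
Col8a2, chr4:126311141-126311200, plus strand, 1 exon, codons 315 to 334: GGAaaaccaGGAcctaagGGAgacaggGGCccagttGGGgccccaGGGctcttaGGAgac
Col4a3, chr1:82641478-82643250, plus strand, across 2 exons, codons 43 to 62: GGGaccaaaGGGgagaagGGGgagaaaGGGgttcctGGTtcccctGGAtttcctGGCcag
Col9a3, chr2:180605239-180605750, plus strand, across 2 exons, codons 177 to 196: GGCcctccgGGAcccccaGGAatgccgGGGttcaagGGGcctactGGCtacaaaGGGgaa
Lamb1, chr12:31302993-31303052, plus strand, 1 exon, codons 898 to 917: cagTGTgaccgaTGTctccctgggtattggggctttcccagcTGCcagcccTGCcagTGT
By this choice the collagen stretches open each triplet with a glycine codon, and the laminin stretch is rich in cysteine, with 5 codons at uneven spacing. The stretches are therefore not typical of the whole chains. Over the longest complete coding sequence of each gene, 44 of 44 collagens held at least 1 unbroken run of 5 or more Gly-X-Y triplets and 0 of 11 laminins did. Glycine made up a median of 24.2% of residues in the collagens and 8.17% in the laminins, and cysteine 1.19% in the collagens and 5.82% in the laminins.

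The length of the unbroken helix sets the fibrillar collagens apart, while the longest runs of the other classes overlap. A run of 300 or more triplets was found in 9 of the 44 collagens, each of them fibrillar, such as Col1a1 with 338 triplets, Col1a2 with 339 and Col3a1 with 344. The fibrillar Col24a1 and Col27a1 had longest runs of 216 and 217 triplets. The chains of type IV collagen held more triplets in sum than the fibrillar chains, from 425 in Col4a3 to 444 in Col4a5, but broken into 22 to 27 runs of which the longest, in Col4a2, had 66. The short chains Col8a1 and Col8a2 each had 9 runs, the longest of 60 and 59 triplets. The type IX chains Col9a1, Col9a2 and Col9a3 each had 6 runs with a longest one of 113. Col12a1, of the same fibril-associated class, had a longest run of 32. Between these lay Col17a1, which spans the membrane, with 55 and the type VI chain Col6a1 with 87.

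**Figure D1:**
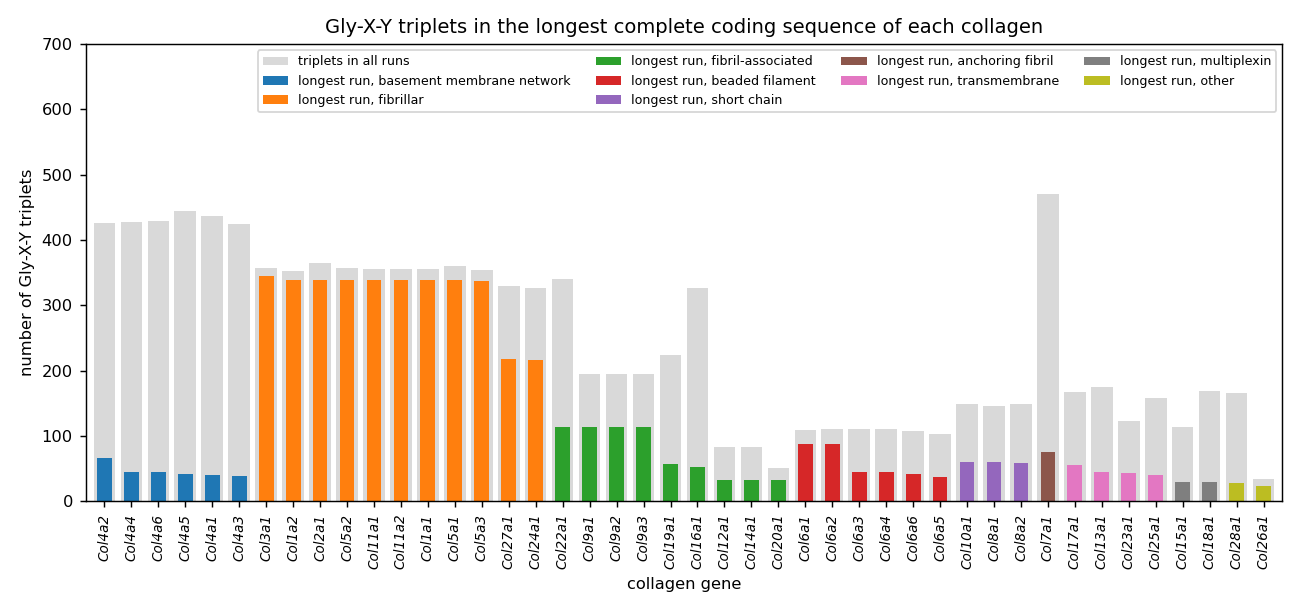
Number of Gly-X-Y triplets (vertical axis) in the longest complete coding sequence of each of the 44 collagen genes (horizontal axis), as triplets in all runs of at least 5 (grey bars) and in the longest run (coloured bars, 1 color per class). Of the fibrillar genes, 9 hold nearly all of their triplets in 1 run of up to 344, the longest runs of Col24a1 and Col27a1 have 216 and 217, and the basement membrane genes hold 425 or more in runs of at most 66.

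The gene tables held 38921662 expected reads in replicate 1 and 39499350 in replicate 2. The spread of genes between the libraries gave a common biological coefficient of variation of 16.6% over 16640 genes. One label calls the tissue male and another gives the sex as not collected. Of the genes on the Y chromosome, Ddx3y, Eif2s3y and Uty had 0 reads in each library, Kdm5d had 1 in replicate 1 and 0 in replicate 2, and Xist had 694 reads in replicate 1 and 611 in replicate 2, which goes against the male label. Neuronal and glial markers were present, with a summed level of 1641 TPM in replicate 1 against 1923 TPM in replicate 2 for 5 markers of glutamatergic neurons, and 1894 TPM in replicate 1 and 1866 TPM in replicate 2 for 6 astrocyte markers. The libraries stood apart in markers of the choroid plexus, the secretory epithelium of the ventricles: 8 of 8 were higher in replicate 1, with a summed level of 15290 TPM there and 131.7 TPM in replicate 2.

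Most collagen and laminin genes were low in this tissue. Levels are given in TPM, a share of all transcripts that is scaled for transcript length and depth. Of the 55 genes, 10 reached 1 TPM in both libraries, or 18.2%, against 56.7% of protein-coding genes, and 18 did so in at least 1 library. The median of the mean level was 0.4 TPM, against 2.59 TPM over protein-coding genes. The gene for the laminin beta 1 chain, Lamb1, was the 1 member at 5 TPM or more in both libraries. A further 9 members stayed under 0.1 TPM in both. The lowest were Col24a1, a fibrillar collagen, and Col7a1, the collagen of anchoring fibrils, each with 0 reads in replicate 1 and 1 read in replicate 2, where a count of 0 allows up to 3 reads by counting error alone.

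**Figure D2:**
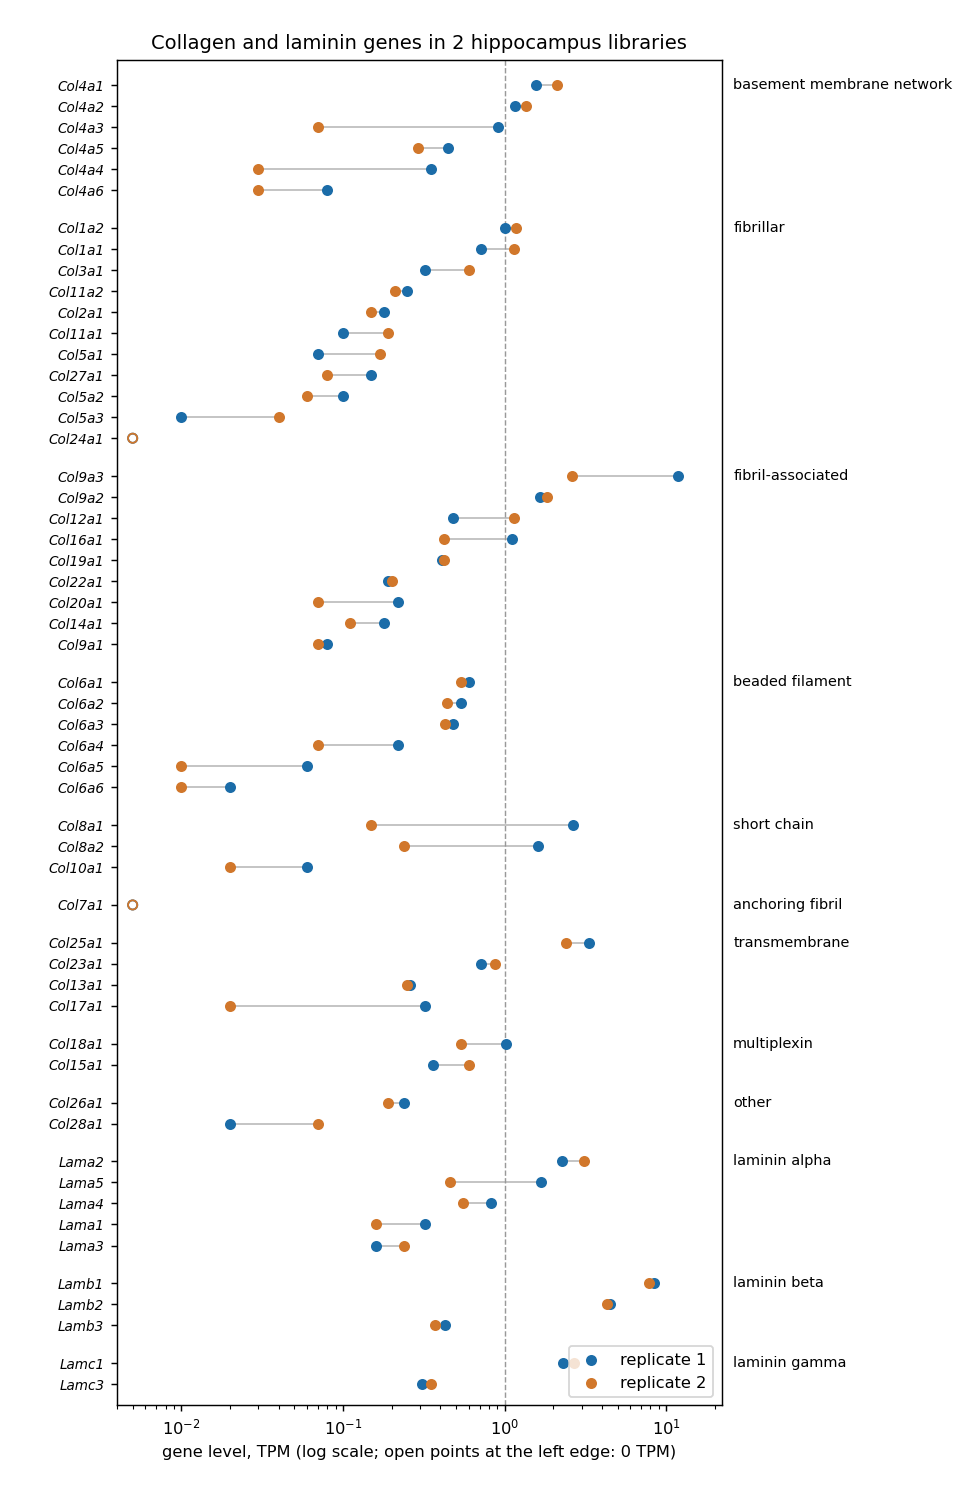
Level of 54 of the 55 genes in TPM (horizontal log axis) in replicate 1 (blue) and replicate 2 (orange), grouped by class, with a grey line joining the libraries and a dashed line at 1 TPM. Lamb1 and Col9a3 reach the highest levels, and the widest gaps between the libraries are those of Col8a1, Col4a3, Col17a1 and Col4a4, each higher in replicate 1.

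The laminin chains took 37.7% of the summed TPM of the members in replicate 1 and 49.99% in replicate 2 (43.8% ± 8.71, SD, n = 2). Their own sum hardly moved, at 21.8 TPM in replicate 1 and 21.4 TPM in replicate 2. The collagen sum was 36.1 TPM in replicate 1 against 21.4 TPM in replicate 2. Of 25 members tested, 6 differed between the libraries by 2-fold or more (24.0%, against 2.41% of all genes tested) by the exact test given with the ratios. With these left out, a choice made after seeing the data, the laminin share came to 53.5% ± 0.737. Leaving out members picked for differing between the libraries lowers this spread by construction.

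The beta chains led the laminins. Lamb1, on chromosome 12 from 31265234 to 31329644 (mm10), had 8.38 TPM in replicate 1 and 7.88 TPM in replicate 2, from 1427 and 1255 expected reads. Lamb2, the beta chain that mouse neuromuscular synapses depend on, had 4.52 TPM in replicate 1 and 4.29 TPM in replicate 2. The ratio of Lamb1 to Lamb2 on the TPM scale was 1.85 in replicate 1 and 1.84 in replicate 2. Lamb3, a chain of epithelial laminin, was lower by an order of magnitude, at 0.43 TPM in replicate 1 and 0.37 TPM in replicate 2. Lamb1 therefore stood above Lamb2 and Lamb2 above Lamb3 in each library, by more than the spread between them.

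Among the gamma chains, Lamc1, the partner of the beta chains in most laminins, had 2.31 TPM in replicate 1 and 2.68 TPM in replicate 2. Lamc3 had 0.31 TPM in replicate 1 and 0.35 TPM in replicate 2, below Lamc1 in each library. The alpha chain of epithelial laminin, Lama3, was below Lamb3 in both libraries, with 0.16 TPM in replicate 1 against 0.24 TPM in replicate 2.

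Of the alpha chains, which set the receptor binding of a laminin, Lama2 was the highest by TPM in each library. Lama2 is the alpha chain of muscle, whose loss causes a congenital muscular dystrophy in humans, and is also found around brain vessels. It had 2.28 TPM in replicate 1 and 3.09 TPM in replicate 2, from 302 and 314 expected reads. Lama5 had 1.67 TPM in replicate 1 and 0.46 TPM in replicate 2, and Lama4, a chain of vascular laminin, had 0.83 TPM in replicate 1 and 0.55 TPM in replicate 2. Lama4 and Lama5 were not in the same order in the 2 libraries. Lama1, found in the pial basement membrane, had 0.32 TPM in replicate 1 and 0.16 TPM in replicate 2, although its reads were as many, 35 in replicate 1 and 40 in replicate 2. The TPM of a gene weighs its reads by the length of the transcripts they are assigned to.

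The chains of type IV collagen took 7.78% of member TPM in replicate 1 and 9.08% in replicate 2 (8.43% ± 0.922, SD, n = 2). Col4a1 and Col4a2, which form the trimer found in nearly all basement membranes, were its main chains. Col4a1 had 1.56 TPM in replicate 1 and 2.11 TPM in replicate 2, and Col4a2 had 1.16 TPM in replicate 1 and 1.36 TPM in replicate 2. Col4a5 had 0.45 TPM in replicate 1 and 0.29 TPM in replicate 2, and Col4a6 had 0.08 TPM in replicate 1 and 0.03 TPM in replicate 2. Col4a3 and Col4a4, the chains that join Col4a5 in the kidney filter and whose loss causes Alport syndrome in humans, split by library. Col4a3 had 0.91 TPM in replicate 1 and 0.07 TPM in replicate 2, and Col4a4 had 0.35 TPM in replicate 1 and 0.03 TPM in replicate 2. Both were above 0.3 TPM in replicate 1 and below 0.1 TPM in replicate 2.

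Which of the main chains of type IV collagen stood higher depended on the measure. The ratio of Col4a1 to Col4a2 was 1.345 in replicate 1 and 1.551 in replicate 2 by TPM. By expected counts, with no scaling for length, it was 0.734 in replicate 1 and 0.609 in replicate 2. Over full-length coding transcripts it was 0.595 in replicate 1 and 0.265 in replicate 2 by TPM. The order of the chains was the same in both libraries under each measure and turned round between measures.

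The fibrillar collagens were near or below 1 TPM. Type I collagen, the main collagen of fibroblasts, had 0.72 TPM of Col1a1 in replicate 1 and 1.15 TPM in replicate 2, and 1.00 TPM of Col1a2 in replicate 1 and 1.17 TPM in replicate 2. Col3a1, which shares fibers with type I, had 0.32 TPM in replicate 1 and 0.60 TPM in replicate 2. Each of the 3 had its lower value in replicate 1, and 0 of the 3 were past 2-fold between the libraries by counts. The other 8 fibrillar genes ranged up to 0.25 TPM, the value of Col11a2 in replicate 1. Type VI collagen forms beaded filaments of Col6a1, Col6a2 and 1 further chain. Col6a1 had 0.60 TPM in replicate 1 and 0.54 TPM in replicate 2, Col6a2 had 0.54 TPM in replicate 1 and 0.44 TPM in replicate 2, and Col6a3 had 0.48 TPM in replicate 1 and 0.43 TPM in replicate 2. The alternatives to Col6a3, namely Col6a4, Col6a5 and Col6a6, lay between 0.01 and 0.22 TPM.

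The highest collagens were not of the basement membrane or fibrillar classes. Col9a3, a chain of the type IX collagen of cartilage, had 11.9 TPM in replicate 1 and 2.60 TPM in replicate 2. Its partners were lower, with 1.66 TPM of Col9a2 in replicate 1 and 1.84 TPM in replicate 2, and 0.08 TPM of Col9a1 in replicate 1 and 0.07 TPM in replicate 2. By TPM the gap to Col9a2 was 7.18-fold in replicate 1 and 1.41-fold in replicate 2. By expected counts it was 13.3-fold in replicate 1 and 2.63-fold in replicate 2. Over full-length coding transcripts Col9a3 had 8.22 TPM in replicate 1 and 2.19 TPM in replicate 2. On that measure Col9a2 had 0.39 TPM in replicate 1 and 0.57 TPM in replicate 2. Col25a1, a membrane-spanning collagen of neurons that binds amyloid beta, had 3.33 TPM in replicate 1 and 2.39 TPM in replicate 2. Another membrane-spanning collagen, Col23a1, had 0.71 TPM in replicate 1 and 0.87 TPM in replicate 2. Col19a1, which mouse hippocampal interneurons express, had 60 expected reads in each library and 0.41 TPM in replicate 1 and 0.42 TPM in replicate 2. Col12a1, which sits on collagen fibers, had 0.48 TPM in replicate 1 and 1.14 TPM in replicate 2, and Col16a1 had 1.12 TPM in replicate 1 and 0.42 TPM in replicate 2.

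The libraries were compared gene by gene with a two-sided exact conditional binomial test of the rounded expected counts, Benjamini-Hochberg adjusted over 14078 genes with a mean count of at least 50. A gene was called at an adjusted p under 0.05 and a ratio of at least 2-fold. The test covers counting error only. Each of the 339 genes past 2-fold also passed the adjusted p, so that the ratio alone set the calls. Of the 55 members, 25 could be tested and 6 were called, against 2.41% of all genes tested. Higher in replicate 1 were 5 members, or 20.0% of those tested, against 1.97% of all genes. Of the 6, 3 had under 50 reads in replicate 2 and entered the test through replicate 1. Among the 21 members with 50 reads or more in both libraries 3 were called, against 1.62% of all such genes. The median log2 ratio over the 25 was 0.01, with 14 above 0, against -0.01 over all genes.

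**Figure D3:**
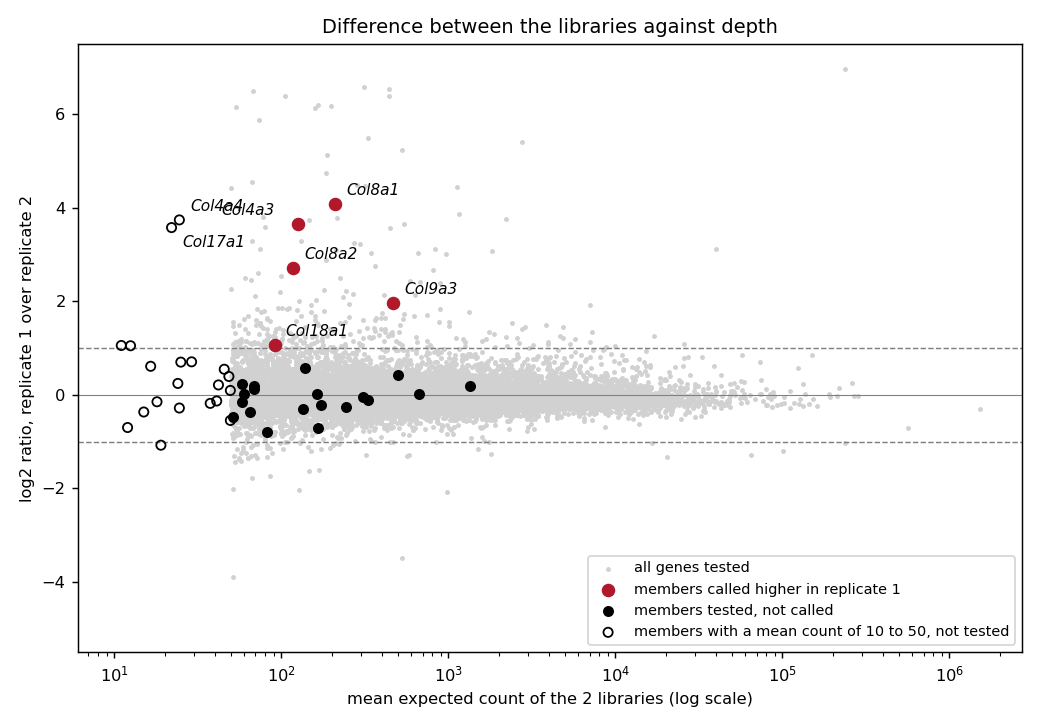
Log2 ratio of expected counts, replicate 1 over replicate 2 (vertical axis), against the mean expected count (horizontal log axis), for the 14078 genes tested (grey), members called higher in replicate 1 (red), members tested and not called (black) and members with a mean count of 10 to 50 (open). Dashed lines mark a ratio of 2-fold. The 5 called members above the upper line run from a log2 ratio of 1.07 for Col18a1 to 4.09 for Col8a1.

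The short-chain collagens of type VIII, which form the hexagonal lattice of the corneal Descemet's membrane and occur in vessel walls, included the member with the highest ratio of those called, Col8a1. Col8a1 (ENSMUSG00000068196.5, chromosome 16, 57624258 to 57754737) had 397 reads in replicate 1 and 23 in replicate 2, with TPM of 2.64 and 0.15 in that order. It was 17-fold higher in replicate 1 (95% interval of the count ratio 11.4 to 27.7, adjusted p = 5.7e-88, exact test). Col8a2 (ENSMUSG00000056174.8, chromosome 4, 126286793 to 126314330) had 204 reads in replicate 1 and 31 in replicate 2, at 1.60 and 0.24 TPM in that order, a ratio of 6.53 (4.52 to 9.99). Between the chains, Col8a1 had 1.65 times the TPM of Col8a2 in replicate 1 and 0.625 times in replicate 2. Both chains were higher in replicate 1. Their order was reversed in replicate 2, from only 23 and 31 reads, and was not tested. The 3 short-chain genes, Col8a1, Col8a2 and Col10a1, together took 7.42% of member TPM in replicate 1 and 0.957% in replicate 2. Col10a1, of type X, had only 5 reads in replicate 1 and 2 in replicate 2.

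Col4a3 (ENSMUSG00000079465.8, chromosome 1, 82586921 to 82722059) had 232 reads in replicate 1 and 18.4 in replicate 2, a ratio of 12.6 (8.02 to 22.2). Its neighbor Col4a4 had 46 reads in replicate 1 and 3 in replicate 2, a ratio of 13.4 with a counting interval of 4.95 to 77.5, and was below the count minimum of the test. The hemidesmosome collagen Col17a1, also below it, had 41 reads in replicate 1 and 3 in replicate 2, a ratio of 11.9 (4.38 to 69.3). With a count minimum of 10, Col4a4 and Col17a1 were called as well. The other 4 chains of type IV collagen were not called, and Col4a1 had 163 reads in replicate 1 and 162 in replicate 2.

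Col9a3 (ENSMUSG00000027570.15, chromosome 2, 180597790 to 180622189) had 746 reads in replicate 1 and 192 in replicate 2, a ratio of 3.90 (3.33 to 4.60). Its partner Col9a2 had 56 reads in replicate 1 and 73 in replicate 2, with an adjusted p of 0.25 in the same exact test. Col18a1 (ENSMUSG00000001435.15, chromosome 10, 77052178 to 77166548), the basement membrane collagen whose end piece is endostatin, had 124 reads in replicate 1 and 59 in replicate 2, at 1.02 and 0.54 TPM in that order, a ratio of 2.10 (1.54 to 2.93). Its interval reached below 2-fold.

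At a ratio of 1.5-fold, Col1a1, with 126 reads in replicate 1 and 206 in replicate 2, and Col12a1, with 59 in replicate 1 and 104 in replicate 2, were called too, both higher in replicate 2.

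Passing the adjusted p at any ratio was common, with 11 of the 25 members and 47.2% of all genes tested. The 5 such members with a smaller ratio include Col1a1 and Col12a1. Lamb1 was 1.14-fold higher in replicate 1 (1.06 to 1.23). Col25a1 had 568 reads in replicate 1 and 428 in replicate 2, a ratio of 1.33 (1.17 to 1.52). Lama5 had 165 reads in replicate 1 and 112 in replicate 2, a ratio of 1.48 (1.16 to 1.90). For Lamb2, with 666 reads in replicate 1 and 663 in replicate 2, the interval of the ratio was 0.905 to 1.13, and for Lama2 it was 0.823 to 1.14. Of the 30 members below the count minimum, with mean levels up to 0.77 TPM, 12 had ratios past 2-fold without a test, some from as little as 1 read.

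Markers of other cell types also differed between the libraries, and not all in the same direction. Each of the 8 choroid plexus markers (Ttr, Folr1, Kcnj13, Aqp1, Clic6, Otx2, Kl and Prlr) was called higher in replicate 1. Of all genes tested, 1.97% were. The members Col8a1, Col8a2, Col4a3, Col9a3 and Col18a1 were called in the same direction. Of the choroid plexus markers, Ttr had 14956 TPM in replicate 1 and 117 TPM in replicate 2. Aqp1 had 1.78 TPM in replicate 1 and 0.01 TPM in replicate 2, and no marker was at 0 in both. The meningeal fibroblast markers Slc6a13, Slc22a6 and Aldh1a2 were called higher in replicate 2, 3 of 7 tested, and the summed level of that list of 8 was 97.1 TPM in replicate 1 against 109.6 TPM in replicate 2. Of 5 ependymal markers 1 was called, Dynlrb2, higher in replicate 1, with a list sum of 144.9 TPM in replicate 1 and 96.6 TPM in replicate 2. The part of these cell types in the differences was not tested. In bulk tissue, fewer cells of a type and less RNA per cell cannot be told apart.

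Markers of vessel cells, which make much of the vascular basement membrane, differed less. The 8 endothelial markers summed to 178.7 TPM in replicate 1 and 218.2 TPM in replicate 2, with 0 of 8 called, against 2.41% of all genes. Of them 3 passed an adjusted p of 0.05 and 4 an unadjusted one, against 47.2% and 52.5% of all genes. The 8 mural markers summed to 66.9 TPM in replicate 1 and 85.4 TPM in replicate 2, with 0 of 8 called and 6 past either p, set against the same shares. By counts, 0 of the 8 mural markers were higher in replicate 1.

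Several members lie side by side in the genome. Col4a4 and Col4a3 are head to head on chromosome 1 with 71 bases between their annotated ends, and their log2 ratios were 3.74 for Col4a4 and 3.66 for Col4a3. Col4a1 and Col4a2 are head to head on chromosome 8 with an overlap of 22 bases, and their log2 ratios were 0.02 for Col4a1 and -0.25 for Col4a2. On the X chromosome Col4a6 and Col4a5 lie head to head 1308 bases apart, with 1.05 for Col4a6 and 0.55 for Col4a5 from few reads. Col3a1 and Col5a2, tail to tail on chromosome 1, had -0.55 for Col3a1 and 0.61 for Col5a2. The pair 71 bases apart was high in replicate 1, and the overlapping pair lay near 0.

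The start regions of 4 members with higher values in replicate 1 are shown from RefSeq, build GRCm38.p6, which had entries for 40 of the 55 members. They are the 71 bases between Col4a4 and Col4a3, read on the strand of Col4a4, and the 120 bases before Col8a1 and Col8a2, each on the strand of its gene. Matches of the GC box (GGGCGG, either strand) are in capitals.
Col4a4, chr1:82586850-82586920, minus strand: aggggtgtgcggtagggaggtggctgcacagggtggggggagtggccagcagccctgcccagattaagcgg
Col8a1, chr16:57754738-57754857, minus strand: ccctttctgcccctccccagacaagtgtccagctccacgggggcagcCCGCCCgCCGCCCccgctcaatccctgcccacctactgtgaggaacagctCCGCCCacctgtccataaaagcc
Col8a2, chr4:126286674-126286793, plus strand: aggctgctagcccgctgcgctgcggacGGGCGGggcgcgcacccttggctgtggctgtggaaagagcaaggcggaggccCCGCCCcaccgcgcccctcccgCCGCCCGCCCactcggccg
The bases G and C made up 69.0%, 67.5% and 79.2% of these windows in that order. Col8a1 had 3 GC boxes and Col8a2 had 4, of which 2 overlap. At least 1 GC box was found in 26.5% of 32851 promoter windows of 120 bases, a share that gives no number per window. The 71 bases of Col4a4 had 0, and 20.7% of promoter windows of that length hold one. The CCAAT box (CCAAT) and the TATA box (TATAAA), searched on both strands, had 0 matches in the 3 windows. They are held by 21.3% and 6.34% of promoter windows of 120 bases, and by 13.3% and 4.41% of those of 71 bases. A match describes the letters and not a bound site.

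A level per gene sums its transcripts, and for several members much of it came from short ones. Of the 10 members that reached 1 TPM in both libraries, 9 had the same highest transcript in both libraries and both quantification programs. The exception was Lama2, where Lama2-201 led in replicate 1 of both programs and Lama2-208 or Lama2-204 in replicate 2. For Col4a1 the leading transcript was Col4a1-206, which codes for 327 of the 1669 residues of the full chain and took 55.8% of the gene's TPM in replicate 1 and 60.7% in replicate 2. For Col9a2 it was Col9a2-202, a transcript of 752 bases with no coding sequence, at 76.5% in replicate 1 and 69.0% in replicate 2. For Lamc1 the second transcript, Lamc1-204, codes for 103 of 1607 residues. It held 48.05% of the gene's TPM in replicate 1 and 41.0% in replicate 2. In contrast Col4a2, Col1a2, Lamb1 and Lamb2 came mostly from the full-length transcript.

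Counted over coding transcripts of at least 90% of the longest coding length, 6 members reached 1 TPM in each library. Lamb1 had 8.28 TPM in replicate 1 and 7.13 TPM in replicate 2 on this measure. Col9a3 had 8.22 TPM in replicate 1 and 2.19 TPM in replicate 2, and Lamb2 had 3.96 TPM in replicate 1 and 3.87 TPM in replicate 2. The other 3 were Col25a1, Lamc1 and Col4a2. Col4a1 fell in the order to 0.69 TPM in replicate 1 and 0.36 TPM in replicate 2, and Lama2 to 0.71 TPM in replicate 1 and 0.44 TPM in replicate 2. Of the 10 highest members by gene TPM, 7 were also among the 10 highest on this measure.

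**Figure D4:**
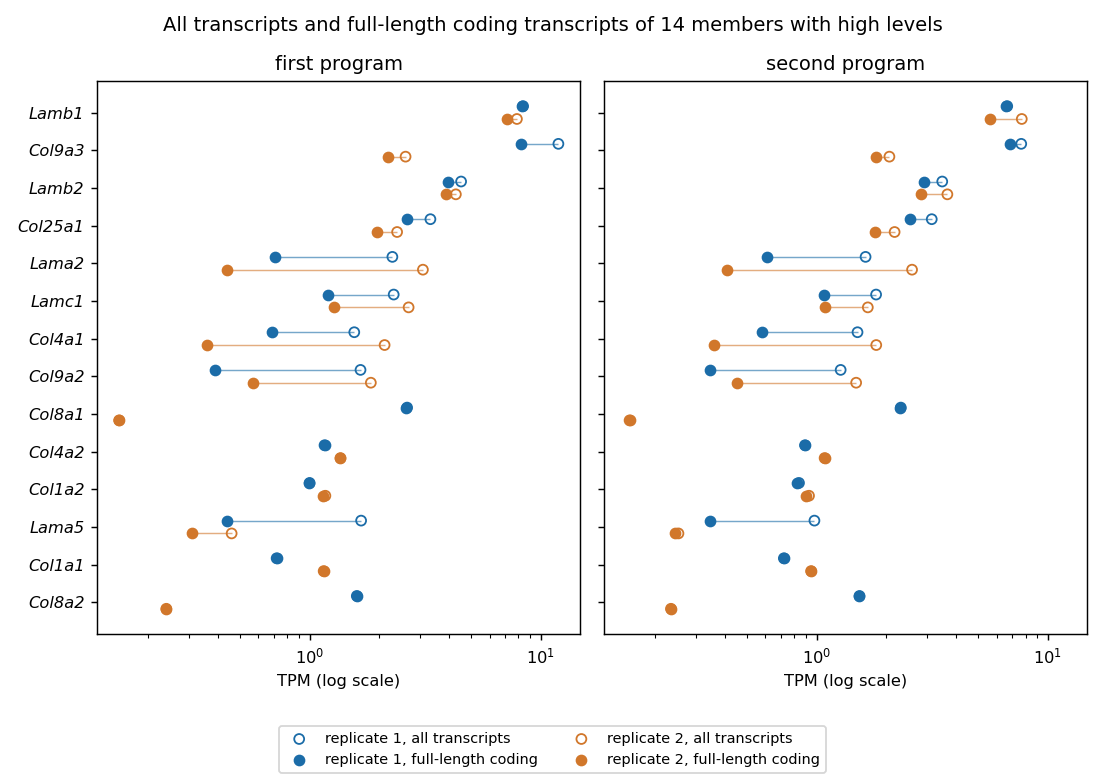
TPM (horizontal log axis) over all transcripts (open points) and over full-length coding transcripts (filled points) of 14 members with high mean TPM, in replicate 1 (blue, above) and replicate 2 (orange, below), for the first program (left panel) and the second (right panel). Filled and open points coincide for genes such as Col4a2 and Col1a1. They part for Lama2, Lamc1, Col4a1 and Col9a2 in both programs, and for Lama5 most widely in replicate 1.

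Some differences between the libraries by TPM lay in the short or intron-holding transcripts to which TPM was assigned. Whether reads came from those transcripts was not tested. Of the TPM of Lama5, the noncoding Lama5-202, 451 bases long, held 0.81 TPM in replicate 1 and 0 TPM in replicate 2, and the full-length Lama5-201 had 0.44 TPM in replicate 1 and 0.31 TPM in replicate 2. For Col9a3, the retained-intron transcript Col9a3-205 had 2.47 TPM in replicate 1 and 0.02 TPM in replicate 2 by the first program, and 0.728 TPM in replicate 1 and 0.000684 TPM in replicate 2 by the second. Col9a3-201, which codes for the whole chain, had 7.61 TPM in replicate 1 and 2.19 TPM in replicate 2, so that the difference remained without the intron-holding forms. Col4a3 had 0.740 TPM in replicate 1 and 0.191 TPM in replicate 2 by the second program. In replicate 2, 0.1365 TPM of this was Col4a3-204, which codes for 197 residues. The full-length Col4a3-201 had 0.740 TPM in replicate 1 and 0.0546 TPM in replicate 2. Some members share bases with genes on the opposite strand, and whether reads were counted by strand is not given in the sources used here, so such reads cannot be told apart. Col9a3 shares 234 of its 3853 exonic bases with Tcfl5, which had 6.14 reads in replicate 1 and 6.04 in replicate 2. Col4a3 shares 563 of 9967 with C430014B12Rik, which had 15.5 reads in replicate 1 and 10.2 in replicate 2.

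Genes that process collagen were at higher TPM than most of the collagens. Of 28 genes for collagen modification, secretion and crosslinking, 21 reached 1 TPM in each library, with a median of 2.91 TPM against 0.4 TPM over the collagen and laminin genes. The highest were Ppib, a prolyl isomerase of the endoplasmic reticulum, with 279 TPM in replicate 1 against 287 TPM in replicate 2, P4hb, a subunit of prolyl hydroxylase and protein disulfide isomerase, with 100 TPM in replicate 1 against 107 TPM in replicate 2, and Mia3, which loads procollagen for export, with 40.2 TPM in replicate 1 against 36.1 TPM in replicate 2. The collagen-specific chaperone Serpinh1 had 2.85 TPM in replicate 1 and 2.39 TPM in replicate 2, and the crosslinking enzyme Lox was the lowest of the list at 0.02 TPM in replicate 1 and 0.07 TPM in replicate 2. Of 25 tested, 2 were called, against 2.41% of all genes, both higher in replicate 1, where 1.97% of all genes were, and both enhancers of procollagen cleavage. Pcolce had 31.6 TPM in replicate 1 and 8.65 TPM in replicate 2, a count ratio of 3.56, and Pcolce2 had 4.68 TPM in replicate 1 and 1.68 TPM in replicate 2, a count ratio of 2.59.

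Of 14 other basement membrane proteins, 13 were tested and 2 were called, against 2.41% of all genes, both higher in replicate 1, against 1.97%. These were the nidogen Nid2, which links laminin to type IV collagen, with 1.67 TPM in replicate 1 against 0.75 TPM in replicate 2, and Frem1 with 0.47 TPM in replicate 1 against 0.11 TPM in replicate 2. The other nidogen, Nid1, had 106 reads in replicate 1 and 120 in replicate 2. Highest were the collagen-binding Sparc with 132 TPM in replicate 1 against 138 TPM in replicate 2, Smoc2 with 17.5 TPM in replicate 1 against 15.8 TPM in replicate 2, and agrin (Agrn) with 8.92 TPM in replicate 1 against 10.2 TPM in replicate 2, and the lowest was Ntn4 with 0.27 TPM in replicate 1 against 0.15 TPM in replicate 2. Pcolce, Pcolce2, Nid2 and Frem1 were higher in the library with the higher choroid plexus markers, whose part was not tested.

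Among 17 receptors for collagen and laminin, 0 of 14 tested were called by the exact test, against 2.41% of all genes. Of them 5 passed an adjusted p of 0.05 and 7 an unadjusted one, against 47.2% and 52.5% of all genes. The highest were the adhesion receptor Adgrg1, which binds type III collagen, with 27.7 TPM in replicate 1 against 40.5 TPM in replicate 2, dystroglycan (Dag1), which binds laminin, with 30.7 TPM in replicate 1 against 33.4 TPM in replicate 2, and the collagen receptor kinase Ddr1 with 15.8 TPM in replicate 1 against 18.2 TPM in replicate 2. The integrin chain Itga10 was lowest, with 0.05 TPM in replicate 1 against 0.08 TPM in replicate 2. Of 14 genes of matrix turnover, 0 of 10 tested were called, against 2.41%, and 6 passed the adjusted and 7 the unadjusted p, against 47.2% and 52.5% of all genes. The metalloproteinase inhibitors led it, with Timp4 at 48.4 TPM in replicate 1 and 55.98 TPM in replicate 2, Timp2 at 25.7 TPM in replicate 1 and 26.5 TPM in replicate 2, and Timp3 at 20.7 TPM in replicate 1 and 13.8 TPM in replicate 2, and the collagenase Mmp13 was lowest with 0 reads in replicate 1 and 2 in replicate 2.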

How the data were processed

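Per the labels and the text deposited beside the tables, reads were set against mm10 with the GENCODE M21 annotation. Program names and versions are not given in sources used here. Per the file headers, a first program, in the column layout of RSEM, gave gene and transcript tables with the expected count, TPM and FPKM deposited by the authors, and a second, in the layout of kallisto, gave an estimated count and TPM per transcript, summed here per gene to 55151500 in replicate 1 and 55608190 in replicate 2. TPM and FPKM are scaled for length and depth. The 26345 rows of the gene tables that name no gene held 2.31e-05% of reads in replicate 1 and 1.64e-05% in replicate 2, and were left out of library sizes and tests.

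Expected counts were rounded for tests. Library sizes were scaled by TMM in edgeR 4.0.16 (R 4.3.3), with factors of 1.00 in replicate 1 and 0.995 in replicate 2. With 1 group, no edgeR or DESeq2 test between groups was possible, so the libraries were compared by an exact conditional binomial test (scipy 1.17.1, Python 3.11.15), tested on simulated data. Ratios used a prior count of 0.5, and 95% intervals are exact Clopper-Pearson intervals. The reads carry no molecular identifiers and PCR copies are not independent, so intervals cover counting error only. Coding features were computed from M21 transcripts.

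The members, the pathway and marker lists and the alternatives were chosen with earlier results of these data known. The 20 highest members, members called and chains of described trimers are given in full, with the 3 highest, the lowest and the called genes of each pathway list. Members named outside this rule were chosen after their values were seen. The values of 1 member are not reported here, although it stays in the counts and sums.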

Additional observations from a re-analysis of the deposited data

How the results depend on the processing

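No paired analysis was possible because the series holds 1 group. With relative log expression factors, library totals, a prior count of 2 or other count minimums, each of the 6 called members that could be tested was called, and 5 to 8 members were called over the settings tried. By the second program's counts 5 were called, as 1 of the 6 calls was lost. Over all genes, 736 were called at a count minimum of 10 and 1081 at 1.5-fold, against 339, and 10 of the pathway genes were called at 1.5-fold, against 4. Members at the level minimum numbered 16 at 0.5 TPM, 6 at 2 TPM and 6 over full-length transcripts, against 10, and 13 to 15 with 1 library alone. Members with 1 leading transcript numbered 5 at 2 TPM, against 9, and 12 to 15 with 1 library alone. The share of type IV collagen was 9.42% by counts, 7.05% over full-length transcripts and 9.63% without called members, against 8.43%, and 7.78% to 9.08% with 1 library alone. The laminin share was 53.5% without called members, against 43.8%, and 37.7% to 49.99% with 1 library alone. The ratio of Col4a1 to Col4a2 was 1.68 by the second program, 0.672 by counts and 0.430 over full-length transcripts, against 1.45, and 1.345 to 1.551 with 1 library alone. Scaling by length and transcript choice enters these by construction. Of 21 named levels, 20 were lower by the second program. In FPKM 21 were lower, which is set in advance because FPKM is TPM times a constant within each library. With 2 libraries no difference between them has a replicate check, and 30 members were too shallow to test.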
